A study of Mus musculus with 6 samples.

Results

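The genes described here encode the machinery that brings proteins into mitochondria, shapes and divides the organelle and degrades its faulty proteins. They were taken by name: 47 symbols for the import translocases, the cristae organising complex, fusion and fission factors, quality-control proteases and the porins. All 47 had a row among the 16423 gene symbols of the deposited table (Phb1 under its older symbol Phb), and all 47 were abundant enough to test. The cells were C3H10T1/2, a mouse mesenchymal cell line labelled as mesenchymal stem cells, in which every library had gone through the same adipogenic induction. Confluent cells received 0.5 mM isobutylmethylxanthine, 1 µM dexamethasone, 850 nM insulin, 1 nM triiodothyronine, 125 nM indomethacin and 1 µM rosiglitazone for 2 days. For the next 2 days only triiodothyronine, insulin and rosiglitazone were kept. On day 4 the cells were transfected with a control siRNA (siNC, genotype labelled WT, 3 libraries) or with siRNAs against Ybx1 (siYBX1, genotype labelled YBX1 knockdown, 3 libraries), and RNA was taken 48 h later. The labels do not say how many siRNA sequences were used or whether replicates were separate cultures, so every p-value below reflects the scatter among these 6 libraries, part or all of which may be technical. YBX1 is an RNA- and DNA-binding protein with a cold-shock domain.

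Nearly all mitochondrial proteins are made in the cytosol and enter through the TOM complex of the outer membrane. From there the TIM23 complex carries proteins with a presequence into the matrix, small TIM chaperones guide carrier proteins to TIM22, and SAM builds barrel proteins into the outer membrane. Mitofusins and OPA1 fuse mitochondria, while DRP1 and its receptors divide them. In brown adipocytes, which are packed with mitochondria for heat production, these systems maintain a large and active organelle network.

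Few of these transcripts passed the threshold when Ybx1 was reduced, and the differences that passed were small. Of the 47 genes 5 rose (Tomm5, Tomm22, Timm17a, Fis1 and Vdac2), 1 fell (Opa1) and 41 did not pass, at a Benjamini-Hochberg adjusted p below 0.05 in limma over all tested genes. The 6 calls make 12.8% of the members, against 20.6% of all 10341 tested genes, with 9.54% of all genes called higher and 11.1% lower. In limma 15 members (31.9%) had an unadjusted p below 0.05, against 36.3% of all tested genes. The called members differed by a median of 0.24 on the log2 scale, against 0.29 for all called genes. The median log2 fold change of FPKM + 1 was 0.03 over the members and -0.01 over all tested genes, and their median absolute values were 0.07 and 0.11. Scaling each library to TPM turned the members' median to -0.015, with 4 members higher and 3 lower. The median of all tested genes then went to -0.06, so it stayed below that of the members. With TPM 21.6% of all genes were called, 662 higher and 1573 lower, which moved the share of all calls that were higher from 46.3% to 29.6%. The siYBX1 and siNC libraries did not overlap for 15 members (31.9%), against 40.9% of all tested genes, 11 of them higher (19% of all genes) and 4 lower (21.9%). Limma's voom on recovered reads called 7 members higher, adding Timm23 and Mtx2, and 1 lower, against 23.4% of all genes. Leaving out siNC replicate 1 or siYBX1 replicate 2 left 3 members higher and leaving out siYBX1 replicate 1 left 2, while Opa1 did not pass without siYBX1 replicate 2.

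Ybx1 was 135, 134 and 129.6 FPKM in siNC replicates 1 to 3 and 59.3, 67.9 and 61.3 FPKM in siYBX1, which left 47.3% of the control mean (adjusted p = 3.98e-06, limma). The libraries rested on 31957411 to 35410308 reads, and each member on 317 to 17290 reads per library. siNC replicate 1 stood apart: over all tested genes the chi-square per gene was 26.8 and 22.8 against the other controls and 5.01 between those. It was the lowest control for 35 of 47 members (74.5%), against 38.6% of all tested genes. Between pairs of siYBX1 libraries the chi-square per gene was 9.33 to 12.4. There siYBX1 replicate 3 was the lowest of its group for 25 of 47 members (53.2%), against 26.9% of all tested genes. General adipocyte markers (6 of 7 with a row) summed to 2002, 2842 and 2784 FPKM in siNC replicates 1 to 3. Their siYBX1 sums were 2520 to 2984 FPKM. Fabp4 made up the largest part of each sum, and the markers did not move in the same direction. Log2 fold changes were positive for Fabp4 (0.26) and Pparg (0.08) but negative for Cidec (-0.25), Plin1 (-0.18) and Adipoq (-0.06). Every siYBX1 library lay below every control for Plin1, while the other tested markers overlapped. No tested adipocyte marker passed in limma. Fabp4, Adipoq, Cidec, Plin1 and Pparg were abundant and Cebpa was at 0.350 FPKM in siNC. Of 6 brown adipocyte markers only Cidea and Cox8b were above 1 FPKM, and Elovl3 was listed at 0 in every siNC library. Brown markers summed to 121 to 156 FPKM in siNC and 122 to 196 FPKM in siYBX1, most of it Cox8b (log2 fold change 0.22). Cidea was at -0.11, and for both genes the groups overlapped and limma gave no call. The 4 myofibroblast markers summed to 493 to 544 FPKM in siNC and 1697 to 1762 FPKM in siYBX1, carried by Acta2 and Tagln. Cnn1 and Myh11 were at most 0.142 FPKM and on average lower in siYBX1. The 4 progenitor markers with a row, led by Ly6a, summed to 500.5 to 522 FPKM and 462 to 484 FPKM. Macrophage markers (4) summed to 24.4 FPKM in siNC replicate 1, 10.9 and 12.9 FPKM in the other controls and 6.83 to 11.2 FPKM in siYBX1, nearly all of it Cd68, with Adgre1, Csf1r and Ptprc at most 0.106 FPKM. The 2 endothelial markers with a row summed to at most 0.07 FPKM. The part of these shifts in the results was not tested, and in bulk RNA fewer cells of a type and less RNA per cell cannot be told apart.

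**Figure D1:**
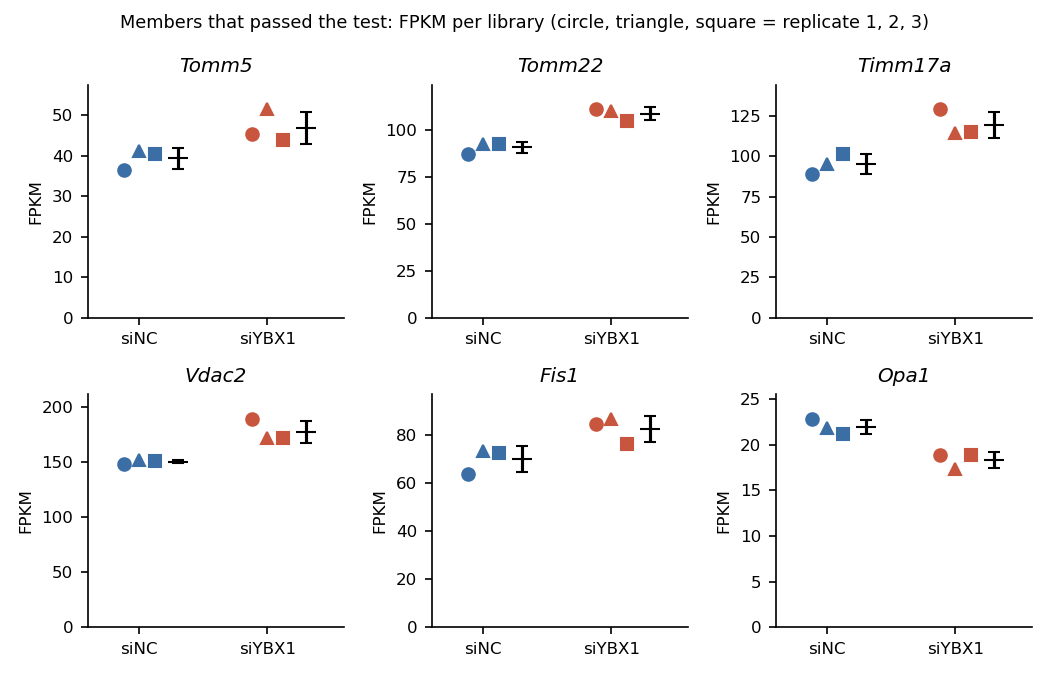
FPKM of the 6 members that passed the test, one panel per gene, with siNC libraries in blue and siYBX1 libraries in red (circle, triangle and square are replicates 1, 2 and 3; the black mark is the mean with its SD, n = 3). In every panel the groups are separate, with differences of means between 0.838-fold for Opa1 and 1.25-fold for Timm17a.

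At the entry gate, the TOM complex, 2 of 7 genes rose and none fell (28.6% called, against 20.6% of all genes). The median log2 fold change was 0.18, and 0.09 with the correction for gene length described below. Tomm22, the central receptor that also organises the complex, was 87.2, 92.4 and 92.0 FPKM in siNC and 110.7, 110.0 and 104 FPKM in siYBX1. All siYBX1 libraries lay above all controls, 1.20-fold apart on average (0.26 on the log2 scale, SE 0.05, adjusted p = 0.00741, limma). Tomm5, a small subunit that sits beside the channel, was 36.5, 41.2 and 40.3 FPKM in siNC and 45.3, 51.4 and 43.8 FPKM in siYBX1. Its groups were separate too (log2 fold change 0.24, SE 0.07, adjusted p = 0.0325), but the call was lost without siNC replicate 1, without siNC replicate 3, without siYBX1 replicate 1 and without siYBX1 replicate 2 (0.18 to 0.29 over the 6 leave-one-out fits).

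The other small TOM subunits had positive values that did not pass. Tomm6 was 139 ± 4.33 FPKM (SD, n = 3) in siNC and 158 ± 13.5 FPKM in siYBX1 (0.18 on the log2 scale, adjusted p = 0.0759), with separate groups. Tomm7 was 49.1 ± 4.74 and 58.1 ± 8.65 FPKM (0.23, adjusted p = 0.122), with groups that overlapped. The remaining subunits sat near 0. Tomm20, the presequence receptor, was 33.6, 34.8 and 34.7 FPKM in siNC and 32.6, 33.7 and 31.3 FPKM in siYBX1, the lowest log2 fold change of the complex (-0.08, 95% confidence interval -0.19 to 0.04). Tomm40, the channel itself, had -0.02 (-0.16 to 0.12) and Tomm70a, the receptor for carrier proteins, 0.00 (-0.13 to 0.12). Tomm34, a cytosolic co-chaperone that despite its name is not a subunit of the channel, was 12.7, 12.8 and 13.8 FPKM in siNC and 13.6, 13.2 and 14.2 FPKM in siYBX1 (0.06, adjusted p = 0.518).

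In the TIM23 complex, the presequence translocase of the inner membrane, 1 of 6 genes rose (16.7% called, against 20.6% of all genes). Timm17a, a channel subunit, had the highest fold change of all members. It was 89.1, 95.3 and 102 FPKM in siNC and 129, 115 and 115 FPKM in siYBX1. The groups did not overlap, and the means differed 1.25-fold (log2 fold change 0.32, SE 0.07, 95% confidence interval 0.18 to 0.47, adjusted p = 0.00787). Timm17a and Tomm22 kept their calls in every leave-one-out fit. Timm23, its channel partner, was 53.4, 66.1 and 69.6 FPKM in siNC and 74.2, 71.2 and 81.4 FPKM in siYBX1. The groups were separate, but it did not pass (0.27, SE 0.09, adjusted p = 0.0613). It was at 0.15 (adjusted p = 0.101) without siNC replicate 1 and passed without siNC replicate 3 (0.34, adjusted p = 0.0354). Timm17b, the second TIM17 form, was 15.4 ± 0.226 and 17.1 ± 1.00 FPKM (0.14, adjusted p = 0.0992). Timm44, which ties the import motor to the channel, was 47.9, 48.8 and 50.4 FPKM in siNC and 48.8, 47.9 and 49.8 FPKM in siYBX1 (-0.01, 95% confidence interval -0.11 to 0.10). Timm50, the receptor on the intermembrane side, and Timm21, which contacts TOM and the respiratory chain, were at 0.00 and 0.03.

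None of the 5 small TIM genes passed in limma, and none had an unadjusted p below 0.05, against 31.9% of the members and 36.3% of all tested genes. These proteins escort hydrophobic precursors across the intermembrane space. Timm13 was the highest, at 42.3, 46.7 and 49.3 FPKM in siNC and 52.6, 53.6 and 47.3 FPKM in siYBX1 (0.15, adjusted p = 0.145). Timm9 was the lowest, at 11.2, 12.5 and 14.3 FPKM in siNC and 12.2, 11.6 and 13.4 FPKM in siYBX1 (-0.02, adjusted p = 0.885). All 5 overlapped between groups, and siNC replicate 1 was the lowest control for each of them. Timm8a1 and Timm10 had 0.04 and 0.01, and Timm8b went from 0.15 to 0.04 without that library. Timm22, the channel they deliver to, was 13.0, 15.0 and 16.7 FPKM in siNC and 13.9, 14.3 and 12.7 FPKM in siYBX1 (-0.11, adjusted p = 0.353).

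The sorting and assembly machinery (SAM), the disulfide relay, the processing peptidase and the MICOS complex held no called gene. In limma 3 of these 8 genes (Mtx2, Chchd4 and Immt) had an unadjusted p below 0.05, close to the 36.3% of all tested genes. Mtx2, a metaxin of SAM, came closest. It was 53.5, 67.9 and 65.3 FPKM in siNC and 73.6, 73.2 and 72.6 FPKM in siYBX1 (0.24, SE 0.08, adjusted p = 0.0559). The siYBX1 libraries were tight and all above the controls, and the value without siNC replicate 1 was 0.13 (adjusted p = 0.0678). Without siNC replicate 2 it passed (0.30, adjusted p = 0.0282). Samm50, the barrel-inserting core of SAM, was 40.03, 43.4 and 41.9 FPKM in siNC and 39.3, 39.8 and 36.6 FPKM in siYBX1. Its groups were separate in the opposite direction (-0.11, adjusted p = 0.168), and it passed with TPM (-0.17, adjusted p = 0.0446). Mtx1, the other metaxin, had 0.05. Chchd4, the oxidoreductase that traps small cysteine-rich proteins, was 11.0, 14.0 and 12.4 FPKM in siNC and 15.0, 15.7 and 12.9 FPKM in siYBX1 (0.21, adjusted p = 0.130). It was at 0.12 without siNC replicate 1 and passed without siNC replicate 2 (0.29, adjusted p = 0.0477).

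Immt, the MICOS core protein MIC60 that bends cristae junctions, was 82.6, 96.5 and 93.3 FPKM in siNC and 106, 101 and 97.1 FPKM in siYBX1 (0.16, adjusted p = 0.111). Its siYBX1 libraries all lay above the controls, and without siNC replicate 1 it was at 0.09. Chchd3, its partner MIC19, was 30.3, 35.6 and 36.0 FPKM in siNC and 36.0, 34.4 and 33.0 FPKM in siYBX1 (0.02, adjusted p = 0.838). The subunits of the peptidase that cuts off presequences barely differed between groups. Pmpca was 34.2, 34.4 and 36.2 FPKM against 34.2, 34.3 and 34.9 FPKM (-0.02), and Pmpcb 105, 121 and 122 FPKM against 124, 119 and 113 FPKM (0.03).

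None of the 7 protease genes passed in limma. An unadjusted p below 0.05 was found for 2, Clpx and Yme1l1, against 36.3% of all tested genes. Lonp1, the main protease of the matrix, was 108, 83.7 and 85.8 FPKM in siNC and 73.6, 84.9 and 82.1 FPKM in siYBX1. The first control was far above the others, the reverse of most members, and the log2 fold change of -0.20 (adjusted p = 0.152) was -0.08 without it. Clpp, the second matrix protease, was 56.8, 61.3 and 60.6 FPKM in siNC and 60.6, 57.5 and 61.6 FPKM in siYBX1 (0.01, 95% confidence interval -0.11 to 0.13). Clpx, the unfoldase that feeds it, was 28.3 ± 1.70 and 25.7 ± 1.08 FPKM (-0.13, adjusted p = 0.136) and passed with TPM (-0.19, adjusted p = 0.0406).

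In the inner membrane, Yme1l1, a protease that cuts OPA1, was 36.7, 40.7 and 38.6 FPKM in siNC and 42.1, 43.8 and 41.6 FPKM in siYBX1. Its groups were separate (0.13, adjusted p = 0.105). Oma1, the stress-activated protease that also cuts OPA1, was the scarcest member, at 2.51 ± 0.366 and 2.38 ± 0.123 FPKM (-0.05, adjusted p = 0.714). Afg3l2, a subunit of the matrix-facing AAA protease, was 23.2, 21.9 and 23.3 FPKM in siNC and 21.9, 21.4 and 21.3 FPKM in siYBX1 (-0.08), and its partner Spg7 had 0.06. Phb1, a prohibitin that forms a ring around that protease, was 33.9, 40.7 and 41.8 FPKM in siNC and 44.4, 42.3 and 38.9 FPKM in siYBX1 (0.11, adjusted p = 0.350), with groups that overlapped, and was at 0.02 without siNC replicate 1.

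**Figure D2:**
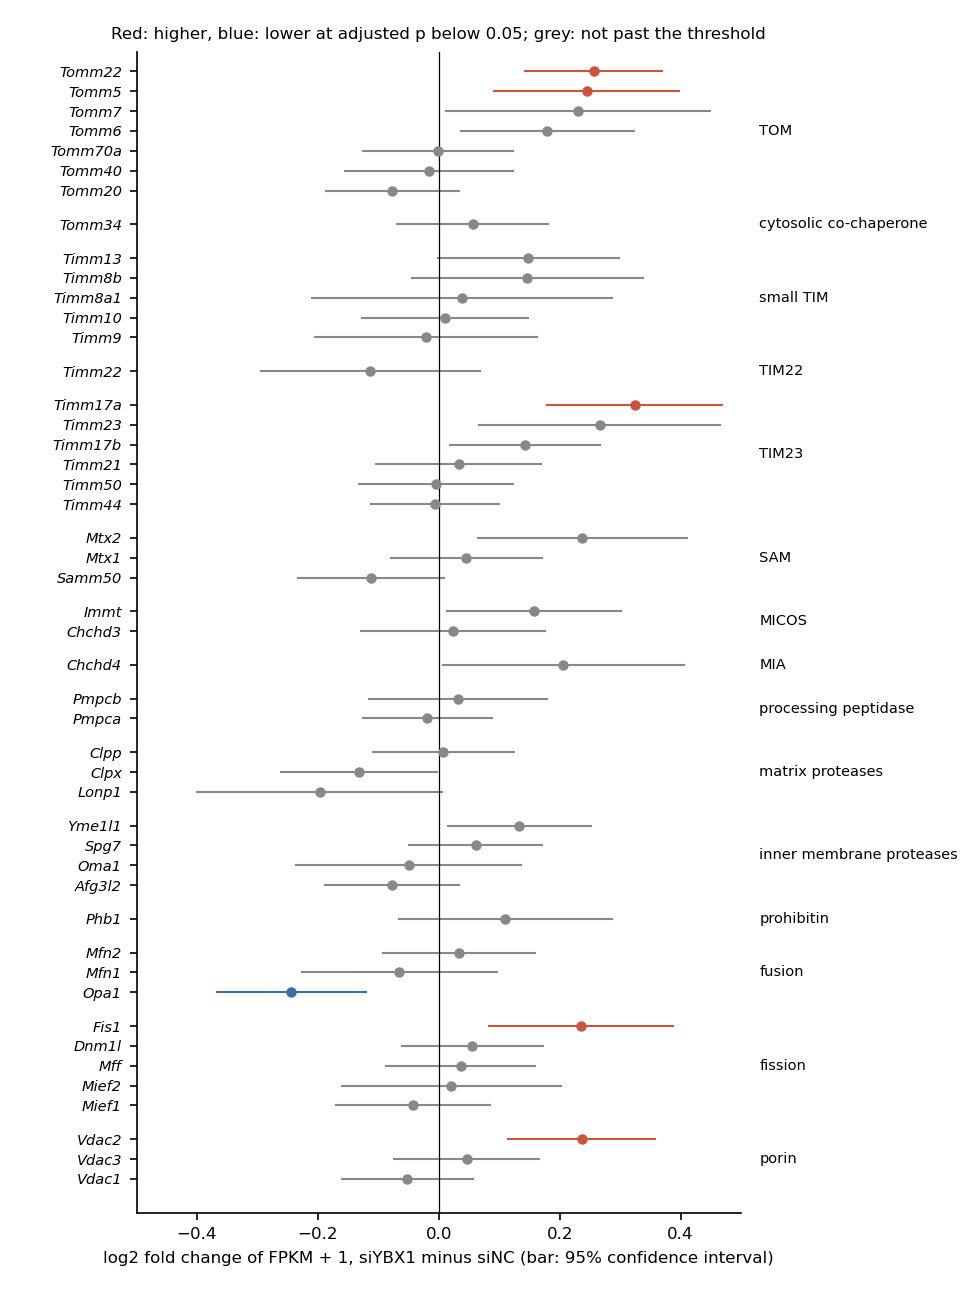
Log2 fold change of FPKM + 1 for all 47 members (points) with 95% confidence intervals (bars), ordered by role and then by value. Red marks the 5 genes that rose, blue Opa1, which fell, and grey the 41 that did not pass; the values run from -0.24 to 0.32.

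Among the fusion genes Opa1 fell and the mitofusins did not pass. Opa1, the GTPase that fuses inner membranes and holds cristae together, was 22.8, 21.8 and 21.2 FPKM in siNC and 18.9, 17.3 and 18.8 FPKM in siYBX1. Every siYBX1 library lay below every control (0.838-fold, log2 fold change -0.24, SE 0.06, 95% confidence interval -0.37 to -0.12, adjusted p = 0.0131). The call was lost without siYBX1 replicate 2 (-0.21, adjusted p = 0.0554). Mfn2, which fuses outer membranes, was 25.6, 23.1 and 22.8 FPKM in siNC and 24.0, 24.0 and 25.2 FPKM in siYBX1 (0.03, adjusted p = 0.719). Mfn1 was 7.89 ± 0.0787 and 7.52 ± 0.845 FPKM (-0.07, adjusted p = 0.558), with the siYBX1 libraries spread on both sides of the controls.

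Of the fission genes 1 of 5 rose (20% called, against 20.6% of all genes). Fis1, an outer membrane adaptor, was 63.6, 73.5 and 72.6 FPKM in siNC and 84.5, 86.5 and 76.3 FPKM in siYBX1. The groups did not overlap (1.18-fold, log2 fold change 0.24, SE 0.07, adjusted p = 0.0364), but the call was lost without siNC replicate 1 (0.17, adjusted p = 0.0635), without siNC replicate 3, without siYBX1 replicate 1 and without siYBX1 replicate 2. Dnm1l, which encodes the fission GTPase DRP1, was 45.2 ± 2.26 and 47.0 ± 0.947 FPKM (0.06, 95% confidence interval -0.06 to 0.17). The receptors that recruit DRP1 were as close: Mff was at 0.04 and Mief2 at 0.02. Mief1 was the lowest of the group, at 8.39, 7.62 and 8.0 FPKM in siNC and 7.61, 7.76 and 7.84 FPKM in siYBX1 (-0.04, adjusted p = 0.641).

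Promoter stretches of Opa1 and Fis1 are shown because these called genes, which moved in opposite directions, each hold 1 of 3 sequence motifs searched on both strands in RefSeq promoters of GRCm38.p6 (250 bases before to 50 after a start, 60 of them printed here from before the start). Capitals mark the match. The Opa1 stretch (chr16:29579250-29579309, plus strand) holds the motif of nuclear respiratory factor 1 (NRF1), and the Fis1 stretch (chr5:136953215-136953274, plus strand) CCGGAAGT, the motif of ETS factors.
Opa1: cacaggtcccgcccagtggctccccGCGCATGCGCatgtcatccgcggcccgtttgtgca
Fis1: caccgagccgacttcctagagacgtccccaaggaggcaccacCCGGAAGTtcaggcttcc
Of the 47 members 42 had a promoter in the table, 50 promoters in all. The NRF1 motif was in 8 of these promoters (16.0%) and in 4.60% of all 32851 promoters, and CCGGAAGT in 9 (18.0%) and in 3.89%. CAAGATGGC, the motif of YY1, was in 2 (4.00%) and in 1.24%. Members with the first motif included Tomm20, Immt, Oma1 and Spg7, which did not pass, and those with the second Mtx2, Timm23 and Tomm70a, which did not pass either. All promoters include those of genes not expressed in these cells, and a match is a description of the letters only.

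The porins, the channels through which metabolites cross the outer membrane, included the most abundant members. Vdac1 was 187, 183 and 179 FPKM in siNC and 176, 176 and 176 FPKM in siYBX1 (-0.05, adjusted p = 0.487), just below all controls. Vdac2 was 148, 152 and 151 FPKM in siNC and 189, 172 and 171 FPKM in siYBX1. The groups were separate, with an SD of 1.66 FPKM in siNC and 9.86 FPKM in siYBX1. The means differed 1.18-fold (log2 fold change 0.24, SE 0.06, adjusted p = 0.0142). The call was lost without siYBX1 replicate 1, the highest library (0.19, adjusted p = 0.0651). With quantile normalization the value was 0.13 (adjusted p = 0.0963). Vdac3 was 100.2 ± 1.90 and 104 ± 5.82 FPKM (0.05, adjusted p = 0.581), with groups that overlapped.

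Members of one family could be compared within a library. The ratio of Vdac2 to Vdac1 FPKM was 0.795, 0.826 and 0.845 in siNC and 1.07, 0.975 and 0.971 in siYBX1. Vdac1 was thus the more abundant transcript in every control, and both were about level in siYBX1. An exact two-sided permutation test, run on the difference in log2(FPKM + 1) between Vdac2 and Vdac1, gave p = 0.1. This is the smallest that 3 against 3 libraries allow, and it was 0.2 adjusted over the 10 family pairs compared. The libraries were also separate for Vdac2 to Vdac3 (1.50 ± 0.0120 and 1.72 ± 0.158), Vdac3 to Vdac1 (0.548 ± 0.0203 and 0.587 ± 0.0330), Mtx2 to Mtx1 (2.83 ± 0.264 and 3.23 ± 0.112) and Spg7 to Afg3l2 (1.25 ± 0.0615 and 1.38 ± 0.0507), each higher in siYBX1 and each with an exact p of 0.1. They overlapped for the other 5 pairs, which were Timm17a to Timm17b, Timm8b to Timm8a1, Mfn2 to Mfn1, Mief2 to Mief1 and Pmpca to Pmpcb. Of single tested genes 40.9% had separate libraries, and the share among ratios of other gene pairs was not computed. The porin ratios reuse the same genes and are not independent, and the direction of a ratio depends on which gene is on top. The labels do not state how reads shared between similar genes or pseudogenes were counted, so values of such relatives are uncertain.

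In control cells the order of levels, per length, ran from Vdac1 (183 ± 4.11 FPKM), Vdac2 (150.3 ± 1.66 FPKM) and Tomm6 (139 ± 4.33 FPKM) down to Timm21 (5.39 ± 0.187 FPKM), Mief2 (4.20 ± 0.485 FPKM) and Oma1 (2.51 ± 0.366 FPKM). Levels also differed widely within single machines. In TIM23, Timm17a stood at 95.3 ± 6.24 FPKM and Timm21 at 5.39 FPKM, and among the OPA1-cutting proteases Yme1l1 stood at 38.7 ± 1.99 FPKM and Oma1 at 2.51 FPKM.

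**Figure D3:**
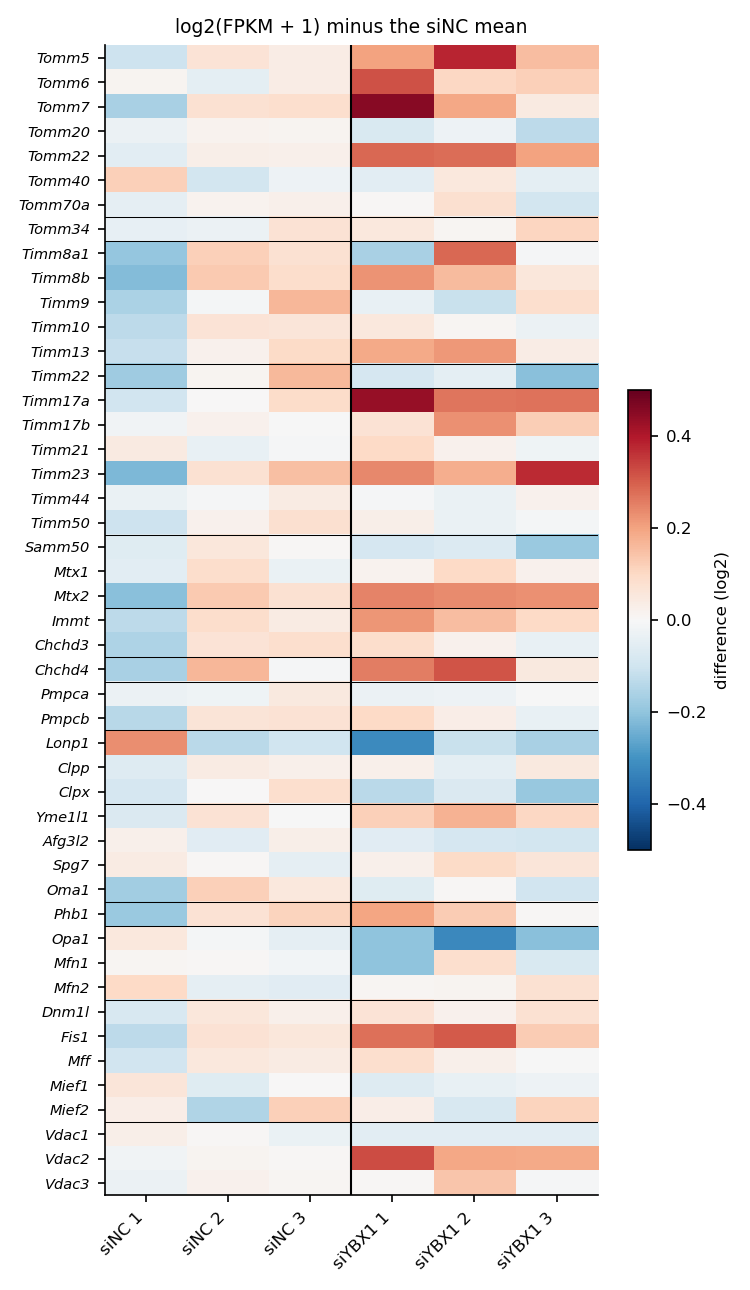
Log2(FPKM + 1) of each member minus its siNC mean, one row per gene in the order of the roles and one column per library; red is above and blue below the control mean, on a scale cut at 0.5 in either direction. siNC replicate 1 is the lowest control for 35 of 47 genes, with Lonp1 as the most visible exception, and Timm17a, Tomm22, Vdac2 and Fis1 are red in all 3 siYBX1 libraries.

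Gene length moved with these differences. Length here is the one behind the FPKM values, and all tested genes were put in order of it and cut into 5 groups of equal size. Of the 47 members 24 lay in the shortest group (168 to 1846 bases), among them all 5 that rose. In that group 20 of 24 members had a positive log2 fold change, with a median of 0.14, against a median of 0.08 for all 2069 genes there, of which 18.9% were called higher and 6.23% lower. Opa1, with 7509 bases, was the only member in the longest group, where the median of all genes was -0.07 and 3.48% were called higher and 14.4% lower. Medians of the members in the 3 middle groups, from shorter to longer, were 0.03, -0.02 and -0.04, beside 0.01, -0.01 and -0.04 for all genes there. Across genes, which are not independent and share the same 6 libraries, log2 fold change and log length had a Pearson r of -0.57 over the 47 members and -0.24 over all 10341 genes (Spearman rho -0.58 and -0.27).

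After a correction that takes each library's trend with length away, 3 members rose and 1 fell, against 20.3% of all genes called. Timm17a (0.23, adjusted p = 0.0235), Vdac2 (0.20, adjusted p = 0.0338), Tomm22 (0.16, adjusted p = 0.0289) and Opa1 (-0.18, adjusted p = 0.0357) passed, with smaller differences than before. Fis1 (0.15, adjusted p = 0.0877) and Tomm5 (0.14, adjusted p = 0.111) did not, and the members' median was 0.02. With the length correction and without siNC replicate 1 together, Tomm22, Timm17a and Vdac2 passed, and Opa1 was at -0.17 (adjusted p = 0.0599). Without siNC replicate 1 alone, 3 members rose and 1 fell, with a median of 0.02, against 19.6% of all genes called. Of members that did not pass, Tomm7 then went from 0.23 to 0.15, Timm13 from 0.15 to 0.09 and Timm22 from -0.11 to -0.20.

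**Figure D4:**
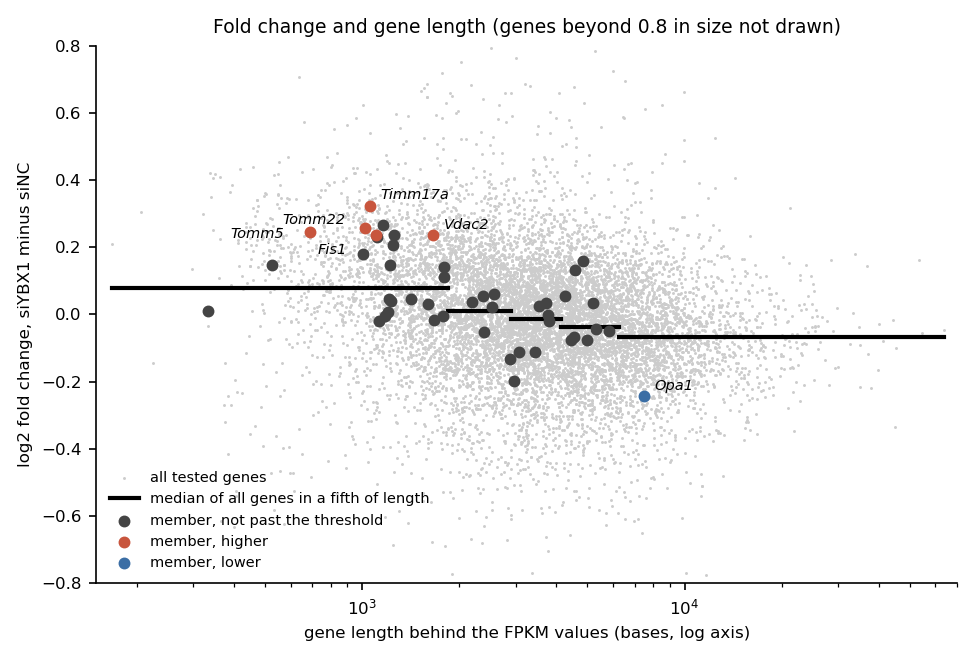
Log2 fold change of FPKM + 1 against gene length in bases (log axis) for all tested genes (grey points; those beyond 0.8 in size are not drawn) and for the members (large points, red higher, blue lower, dark grey not past the threshold). Black lines give the median of all genes in each of the 5 length groups, from 0.08 in the shortest to -0.07 in the longest; the 5 members that rose lie in the shortest group and Opa1 in the longest.

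Other genes of import, cristae, proteolysis and dynamics, 57 by name, were counted the same way. Of 55 with a row 51 were tested, 6 rose, 5 fell and 40 did not pass (21.6% called, against 20.6% of all genes), with a median of 0.04. With the length correction 2 rose and 5 fell. Without siNC replicate 3 or siYBX1 replicate 1, 2 rose, without siYBX1 replicate 2 only 1, and 2 fell without any 1 library other than siNC replicate 1. Over all tested genes 9.54% were called higher and 11.1% lower, and among 20 tested import genes 5 rose and none fell. These were Timm10b (18.9 ± 1.48 to 23.1 ± 0.335 FPKM, adjusted p = 0.0102), a subunit of the TIM22 complex, Grpel1 (0.22) and Pam16 (0.26), parts of the import motor, Dnajc15 (0.28), a relative of the motor's J proteins, and Mtch2 (0.23), an insertase of the outer membrane. Hspa9, the motor's HSP70, did not pass, at 435 and 393 FPKM (-0.15, adjusted p = 0.0970). All siYBX1 libraries lay above all controls for 7 of the 20 import genes and below for 4, against 19% and 21.9% of all genes. The 4 were Hspa9, Hspd1 (-0.22), Mtx3 (-0.15) and Oxa1l (-0.15). With the length correction Hspd1 passed in limma (-0.22, adjusted p = 0.0452), while Pam16, Dnajc15 and Mtch2 did not. None of the 5 MICOS genes passed in limma, and 2 had an unadjusted p below 0.05, against 36.3% of all tested genes. All 5 values were positive, up to 0.20 for Micos10 and Apool, but siNC replicate 1 was the lowest control for each. The groups overlapped for 4 of them. With the length correction their median went from 0.16 to 0.09, and Chchd6 was at -0.06.

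In the protease and scaffold list 1 of 12 rose and 2 fell (25% called, against 20.6% of all genes). Immp1l, a subunit of the inner membrane peptidase, had 0.32 (adjusted p = 0.0201), Trap1, the HSP90 of mitochondria, -0.20 (adjusted p = 0.0361) and Xpnpep3, an aminopeptidase, -0.20 (adjusted p = 0.0402). Among 14 tested genes of dynamics none rose and 3 fell (21.4% called, against 20.6% of all genes). The median of the 14 was -0.02, and -0.0004 with the length correction, with which the 3 falls also passed. Miga2, which promotes fusion from the outer membrane, fell from 20.2 ± 1.10 to 16.3 ± 0.350 FPKM (log2 fold change -0.29, adjusted p = 0.00561), and Mul1, a ubiquitin ligase of the outer membrane that acts on mitofusins and DRP1, from 4.39 ± 0.204 to 3.44 ± 0.152 FPKM (-0.28, adjusted p = 0.0130). Mtfr1l was at -0.15 (adjusted p = 0.0447). Timm10b, Miga2 and Mul1 kept their calls in all 6 leave-one-out fits, while Xpnpep3, Trap1 and Mtfr1l each kept theirs only without siNC replicate 1. Grpel1 and Mtch2 lost theirs without siNC replicate 1, siNC replicate 3, siYBX1 replicate 1 or siYBX1 replicate 2. Pam16 did so without siNC replicate 3, siYBX1 replicate 1 or siYBX1 replicate 2, Dnajc15 without each siYBX1 library in turn, and Immp1l without siNC replicate 3, siYBX1 replicate 2 or siYBX1 replicate 3.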

How the data were processed

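Libraries were made from 1.3 µg of total RNA, per the labels' protocols, which do not say how messenger RNA was selected. The authors deposited 1 table of FPKM values (fragments scaled by gene length and library total) for 16423 symbols and 6 libraries. GRCm39 and the tools fastp, HISAT2 and HTSeq appear in the submitters' processing notes without versions or roles; strandedness and the handling of shared reads are not given in the sources used here.

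FPKM values move in steps of 1 read, so library totals, gene lengths and whole reads were recovered (tolerance 0.02 reads) for 16422 genes; the smallest fitting length is taken, so length and reads can be too small by a common divisor. A read on 2 kb is worth 0.0141 to 0.0156 FPKM.

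Groups were compared on log2(FPKM + 1) by limma 3.58.1 in R 4.3.3, with a trended prior, two-sided and without covariates, for genes whose mean reached 1 FPKM; the added 1 understates changes of low genes. It was checked on simulated reads. Tables were made with Python 3.11.15, pandas 2.3.3, numpy 2.4.6 and scipy 1.17.1. For the length correction, each library's deviations were fitted on log length by loess (span 0.3) and the curve was subtracted. Named with values in every library were called members and the highest and lowest of each role group; Timm23 was added after its values were seen. Of other pathway genes, called ones were named, and a few others chosen after their values were seen. The members and lists were chosen with earlier results of these data known.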

Additional observations from a re-analysis of the deposited data

How the results depend on the processing

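The number of members that rose was 5, and it was 3 with no filter on low values, with the length correction and with length correction and without siNC replicate 1 together (that pair of choices and the length correction with the replicate block were added after seeing the data), and 2 with quantile normalization. Leaving out 1 library gave 2 to 7 members that rose and 0 to 1 that fell, with the single fall lost without siYBX1 replicate 2. The number that fell was 3 with TPM and 0 with length correction and without siNC replicate 1. The members' median was -0.015 with TPM and -0.011 with length correction and without siNC replicate 1, against 0.033. For all tested genes these medians were -0.061 and 0.005, against -0.011. In the wider list, with 6 rises and 5 falls, there were 2 rises with the length correction, also without siNC replicate 1, and 1 with no filter. There were 8 falls with TPM or quantile normalization and 3 with median centring or no filter, the median was -0.016 with TPM, and leaving out 1 library gave 1 to 7 rises and 2 to 6 falls. Over all genes 2132 were called, 2235 with TPM, 2030 with quantile normalization and 1241 with no filter. With 1 library left out 1199 (without siYBX1 replicate 1) to 2026 were called, among them 1306 without siYBX1 replicate 2.

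Replicate numbers are shared between groups, but same-numbered libraries did not deviate together (correlations -0.31, -0.13 and -0.25 for numbers 1 to 3), and 0 of 6 libraries correlated best with their own number. With the replicate block 3 members rose and 1 fell, 3 and 2 genes of the wider list did, and 1346 of all genes were called. With the block and the length correction, limma called 0 members, 0 rises and 1 fall in the wider list and 1202 genes. In that fit 8 of 47 members had an unadjusted p below 0.05, beside 3088 of all 10341 genes. Limma's voom on recovered reads called 7 members higher and 1 lower. None of the 6 called members changed sign under any setting run, and Ybx1 was called in each, but 22 of the 41 other members took both signs, among them Chchd3, Pmpcb, Clpp and Mfn2. The members with fewest reads held 317 to 412 per library (Mief2) and 332 to 386 (Timm10), with an SE of 0.08 and 0.06. Lonp1, with 6975 to 11158 reads, had an SE of 0.09, and the part of depth in the precision was not tested.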
